A study of Drosophila melanogaster with 3 samples.

Results

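The insulin signalling and growth control genes described here are 7 listed genes of *Drosophila melanogaster*: InR, chico, foxo, Thor, S6k, Rheb and Myc. They were listed by name and not by a rule on measured values, but earlier results of these data were known when they were chosen. They are 7 of the 13945 protein-coding genes annotated on the major chromosome arms. For each gene, every ChIP-seq peak with a summit in the gene body or within 5 kb of either end was collected from the deposited dm6 peak lists. The series holds 1 group of 3 biological replicates, and there is no second condition to compare them with. The chromatin came from whole embryos of both sexes, pooled, aged 0 to 24 hours, of a transgenic fly line that stably expresses a protein with GFP at its carboxyl end. The labels name that protein as CG45071 and CG6854 and the targeted gene as CTPsyn. Precipitation was with an antibody to GFP according to the description, although the antibody field reads CG6854. Chromatin was sonicated to 200 to 800 bp. Whole embryos mix all tissues and stages of that day, so a peak cannot be placed in a cell type. The labels do not say how the embryo collections behind the replicates were separated.

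In flies, insulin-like peptides bind the insulin receptor, and adaptor proteins such as chico pass the signal to PI3-kinase and Akt, which keeps the transcription factor foxo out of the nucleus. A linked branch runs through the small GTPase Rheb and the kinase TOR to S6k and Thor, which set the rate of translation. Myc, a transcription factor, drives ribosome production and cell growth, and together these genes govern body size and the response to food.

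The deposited lists give each peak a signal, which is the authors' own value and was used only to rank peaks within a list. The optimal list, derived by the authors with a test of reproducibility between replicates, held 3545 peaks, and its signals went down to 114. These were exactly the 3545 strongest peaks of the pooled list, so a rank in 1 list is also the rank in the other. A place in the optimal list thus reflects pooled signal and does not show that each replicate held that peak strongly. The pooled list and each replicate list held 30000 peaks, weak ones included, and 88% of all protein-coding genes had a pooled summit in their window. The strongest 3545 peaks of a replicate list are called its top part below. Read depth behind the lists is unknown, because the files hold no counts.

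The sequences under 7 peaks that the results turn on are shown first. They are the strongest optimal peaks of foxo, InR and Thor, the peaks at the starts of foxo, InR and Myc, and the Rheb promoter peak that just missed the optimal list. Each is read 5′ to 3′ in the direction of transcription of its gene from the RefSeq copy of Release 6 (dm6). The foxo upstream and InR internal peaks are shown whole. For the peaks at the starts of InR, Thor and Myc, the peak's bases before the transcription start site (TSS) are shown, and for the foxo and Rheb promoter peaks the 100 bp on either side of the summit. Capitals mark matches, on either strand, to the motifs described further on (GAGAG and TATAAA were the ones found here).
foxo upstream, chr3R:14053452-14053720, plus strand, 269 bp: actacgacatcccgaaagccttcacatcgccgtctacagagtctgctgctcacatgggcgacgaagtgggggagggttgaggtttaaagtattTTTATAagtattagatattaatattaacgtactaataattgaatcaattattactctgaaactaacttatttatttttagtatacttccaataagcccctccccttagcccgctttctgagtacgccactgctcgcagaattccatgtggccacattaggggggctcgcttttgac
foxo promoter, chr3R:14056478-14056678, plus strand, 201 bp: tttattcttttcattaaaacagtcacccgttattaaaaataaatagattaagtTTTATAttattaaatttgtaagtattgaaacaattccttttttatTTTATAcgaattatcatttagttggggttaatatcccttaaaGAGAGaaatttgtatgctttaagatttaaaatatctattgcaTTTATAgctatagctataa
InR internal, chr3R:21590726-21590928, minus strand, 203 bp: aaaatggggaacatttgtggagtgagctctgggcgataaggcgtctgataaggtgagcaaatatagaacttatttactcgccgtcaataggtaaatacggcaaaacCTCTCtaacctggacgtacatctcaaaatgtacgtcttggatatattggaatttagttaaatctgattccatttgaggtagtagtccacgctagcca
InR distal, chr3R:21619322-21619530, minus strand, 209 bp: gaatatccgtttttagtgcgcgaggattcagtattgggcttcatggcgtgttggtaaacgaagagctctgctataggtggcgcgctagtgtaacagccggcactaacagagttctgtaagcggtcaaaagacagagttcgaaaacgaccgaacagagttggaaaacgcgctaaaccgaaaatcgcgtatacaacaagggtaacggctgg
Thor promoter, chr2L:3478229-3478433, plus strand, 205 bp: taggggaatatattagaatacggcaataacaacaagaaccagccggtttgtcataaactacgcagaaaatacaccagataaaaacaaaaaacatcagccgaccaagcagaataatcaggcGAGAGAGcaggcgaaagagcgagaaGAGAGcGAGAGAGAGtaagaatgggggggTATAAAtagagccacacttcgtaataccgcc
Myc promoter, chrX:3372906-3373158, plus strand, 253 bp: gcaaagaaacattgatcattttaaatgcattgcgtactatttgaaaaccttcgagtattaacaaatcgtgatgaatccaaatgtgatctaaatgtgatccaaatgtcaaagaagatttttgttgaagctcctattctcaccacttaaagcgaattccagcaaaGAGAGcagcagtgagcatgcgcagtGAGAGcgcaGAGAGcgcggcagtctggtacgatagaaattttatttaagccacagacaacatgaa
Rheb promoter, chr3R:5568697-5568897, plus strand, 201 bp: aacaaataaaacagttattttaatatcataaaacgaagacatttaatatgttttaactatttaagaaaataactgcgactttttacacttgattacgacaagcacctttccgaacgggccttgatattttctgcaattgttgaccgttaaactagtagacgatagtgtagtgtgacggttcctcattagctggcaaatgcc
The InR distal and Rheb promoter stretches held no match to any of the motifs searched, and the Thor promoter stretch held the most, 7.

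Of the 7 genes, 6 had an optimal summit in the window and only chico had none. Among all protein-coding genes 39.4% had one. Long genes offer more room: 59.5% of genes of 10 kb or more had an optimal summit in the window, against 36.1% of shorter genes. All 4 long genes of the list (InR, foxo, S6k and Myc) and 2 of the 3 short ones (Thor and Rheb) had one. An optimal summit lay within 500 bp of a TSS of the gene itself for 5 of the 7 genes (InR, foxo, Thor, S6k and Myc), where the share over all genes was 14.1%. That share was not matched for gene length or number of TSSs, and InR has 4 TSSs and foxo and Thor 2 each. InR, with 7, and foxo, with 5, each held at least 5 optimal summits, as did 5.36% of all genes of 10 kb or more. With so few genes, chosen for their shared pathway, these counts describe the list and were not tested.

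The 7 windows together held 18 optimal peaks, 105 pooled peaks, and 98, 108 and 94 peaks of replicates 1, 2 and 3. Of the 18 optimal peaks, 9 lay in introns, 6 upstream of the gene, 3 in 5′ untranslated regions and 0 in coding exons. InR held 6 of the intron peaks and foxo 2, and these are the longest genes of the list. By window length, Thor had the densest optimal peaks, 1.79 per 10 kb, followed by foxo with 1.22, InR with 1.18, Rheb with 0.864, S6k with 0.855 and Myc with 0.35. The mean over all protein-coding genes was 0.382 per 10 kb, and the median was 0. Myc was close to the mean, 63% of all genes had a lower density than Myc, and the other 5 genes with peaks lay above the mean.

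**Figure D1:**
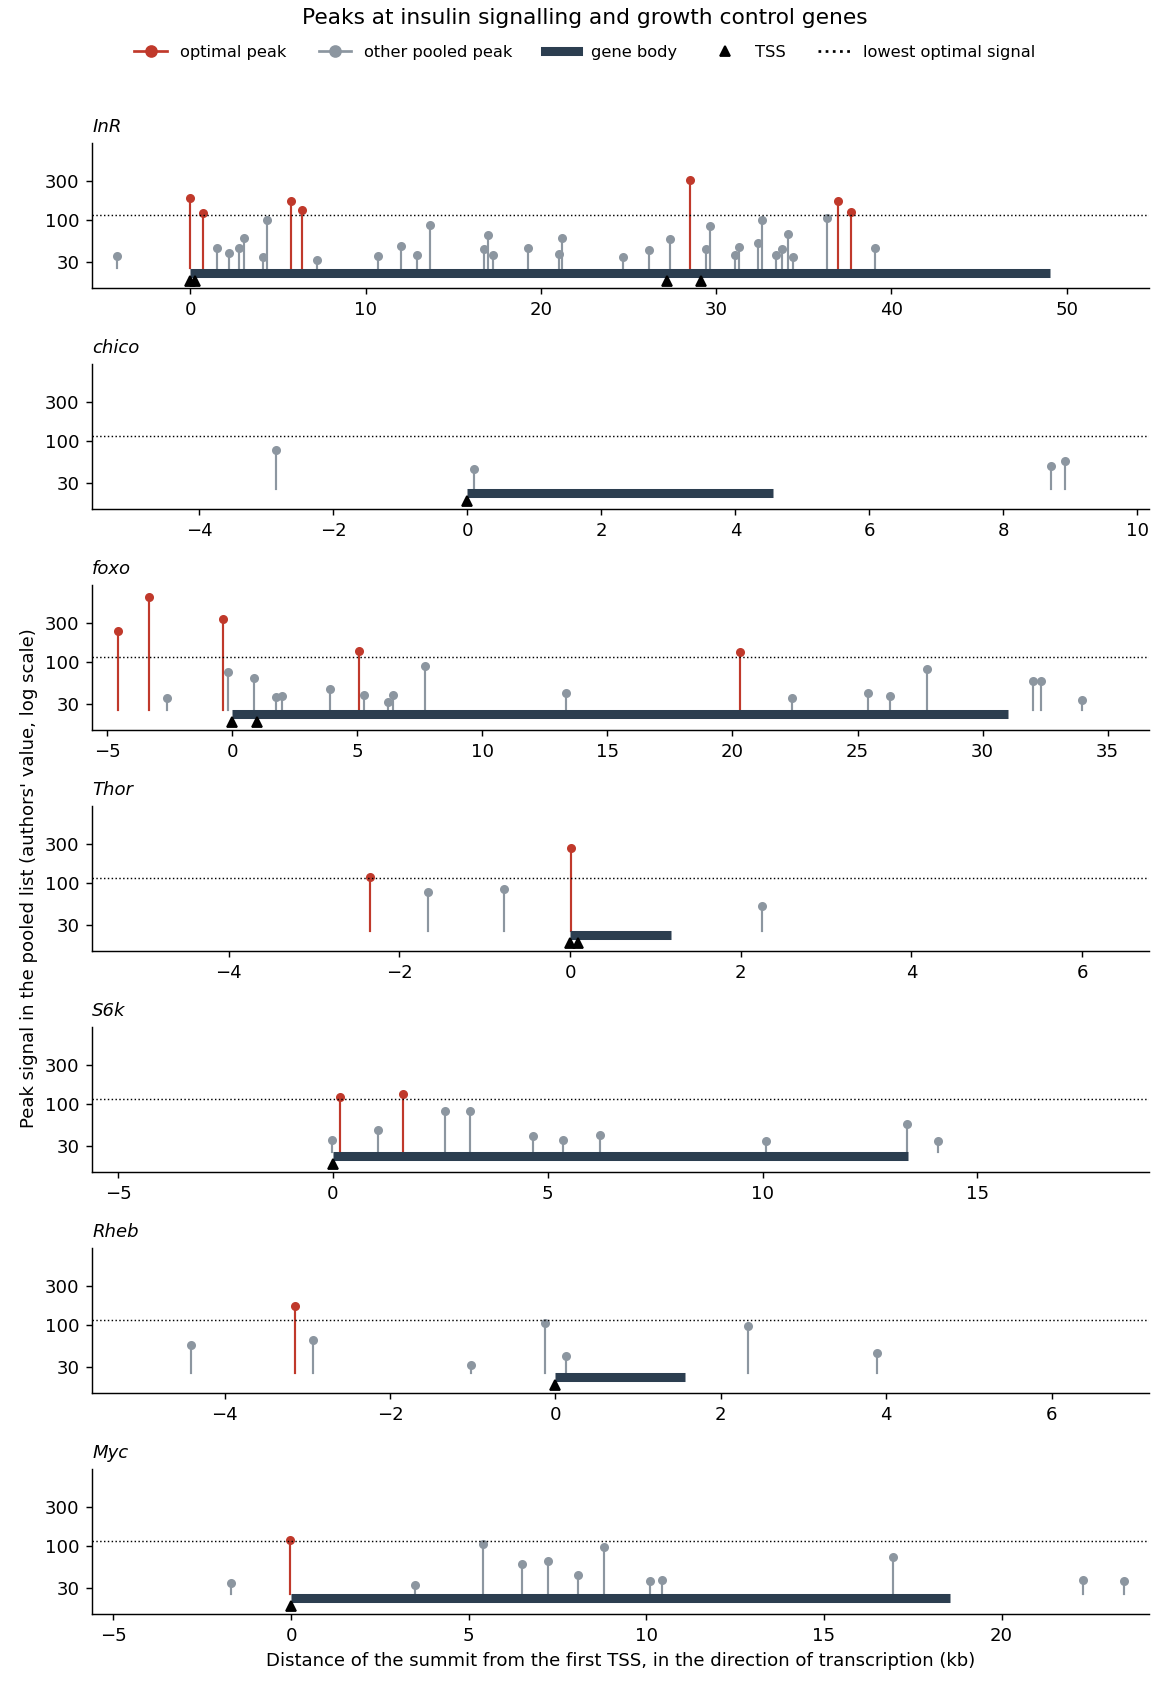
Position and signal of every pooled peak at the 7 genes, with the distance of the summit from the first TSS in kb on the horizontal axis and the authors' signal on a log scale on the vertical axis. Red points are the 18 optimal peaks, grey points the other 87 pooled peaks, the dark bar is the gene body, triangles are TSSs, and the dotted line is the lowest optimal signal, 114. The tallest peak, at foxo, stands upstream of the gene, and all 4 chico points lie under the line.

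InR encodes the insulin receptor, a receptor tyrosine kinase, and is the longest of the 7 genes (FBgn0283499, chr3R:21570248-21619321, minus strand, 49.1 kb). Its 4 transcripts start at 4 sites: InR-RB at 21619321, InR-RA 285 bp further in, InR-RC at 27200 bp and InR-RD at 29130 bp from the first. Its strongest peak did not sit at the outermost start but deep in the gene (chr3R:21590726-21590928, in an intron). That summit lay 641 bp upstream of the InR-RD start and 1289 bp downstream of the InR-RC start, with a pooled rank of 572 and a signal of 310. It ranked 270, 746 and 872 in replicates 1, 2 and 3, inside the top part each time. At 203 bp it was narrower than the 436 bp that most peaks share, as were 20% of all optimal peaks.

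At the outermost InR start, an optimal peak (chr3R:21619095-21619530) had its summit 8 bp downstream of the InR-RB TSS, in the 5′ untranslated region. Its pooled rank was 1451, and its ranks in replicates 1, 2 and 3 were 960, 1422 and 2677. A second peak (chr3R:21618390-21618825) had its summit in an intron, 428 bp downstream of the InR-RA start, at pooled rank 3120. It ranked 3594, 7400 and 1397, so only replicate 3 held it in its top part. The InR-RC start had no optimal peak within 500 bp, and its nearest pooled summit, 178 bp downstream, ranked 11095. The replicate peaks overlapping it ranked 6553, 3430 and 18958, so only that of replicate 2 was in its top part. The replicate 2 summit lay 402 bp downstream of the InR-RC start, 224 bp from the pooled summit. The noncoding gene lncRNA:Irar starts on the other strand 229 bp from the InR-RC start.

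The other 4 optimal peaks of InR formed pairs inside introns. The first pair lay 5479 and 6075 bp downstream of InR-RA (chr3R:21613339-21613774 and chr3R:21612743-21613178). The first of these was even across replicates, with ranks of 1155, 1815 and 1872, and the second was the most uneven of the optimal peaks found in all 3 replicates, with ranks of 28593, 1518 and 4118. The second pair lay 7848 and 8540 bp downstream of InR-RD (chr3R:21582125-21582560 and chr3R:21581433-21581868). There too the first was even, with ranks of 1483, 1286 and 2565. The other had no overlapping peak in replicate 1 and ranked 1463 and 4177 in replicates 2 and 3, the only 1 of the 18 not found in every replicate. In all, 4 of the 7 InR peaks were in the top part of each replicate. Below the optimal list the gene held 33 further pooled peaks, 31 of them in introns, and the strongest of these ranked 4115.

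Chico encodes the fly insulin receptor substrate, the adaptor that links the receptor to PI3-kinase (FBgn0024248, chr2L:10242512-10247078, minus strand, 4.57 kb, 1 TSS). It was the only gene of the 7 with no optimal peak, and no replicate had a top-part summit in its window either. Just 4 pooled peaks fell there. The strongest, at rank 7173 with a signal of 76.2, lay upstream in bsk, which encodes the fly Jun kinase, 186 bp before a bsk TSS. It ranked 18431, 15481 and 4632 in replicates 1, 2 and 3. Another pair, at ranks 11922 and 15090, lay around the start of the neighbour mthl15. The single pooled peak at chico's own start, 102 bp downstream of the TSS, ranked 17506 with a signal of 43.9. The replicate peaks overlapping it ranked 7720, 14400 and 18499, with summits up to 362 bp away from it. The peak at chico's own start was thus below the top part of every replicate, and the 3 stronger pooled peaks of its window lay at other genes.

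Foxo encodes the forkhead transcription factor that is active when insulin signalling is low (FBgn0038197, chr3R:14056945-14087978, plus strand, 31 kb). Its transcripts start at 14056945 (foxo-RB, RC, RF and RH) and 974 bp further in (foxo-RG). The strongest peak of all 7 genes stood upstream of it (chr3R:14053452-14053720), with its summit 3334 bp before the first TSS and 4308 bp before that of foxo-RG. Its signal was 627 and its pooled rank 123. It ranked 89, 140 and 134 in replicates 1, 2 and 3, with signals of 158, 259 and 211, and the replicate summits fell within 17 bp of the optimal one. The rank of this peak differed 1.57-fold between replicates, the least of the 17 optimal peaks found in all 3.

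The foxo promoter peak (chr3R:14056360-14056795) had its summit 367 bp before the first TSS and 1341 bp before that of foxo-RG. It had a signal of 338 and a pooled rank of 475, and ranked 287, 690 and 497. This was the strongest optimal promoter peak of the 7 genes. Farther upstream, another peak (chr3R:14052165-14052600, 4562 bp before the first TSS) had a pooled rank of 914. Replicates 1 and 2 ranked it 892 and 514, and replicate 3 ranked it 3251, near the end of its top part. The 3 upstream peaks of foxo were thus each in the top part of every replicate. A pair of weaker optimal peaks lay in introns, 4087 and 19325 bp downstream of the foxo-RG start, at pooled ranks 2582 and 2726. Each was in the top part of replicate 2 only, and the more distal peak lay closer to a start of the downstream gene Npc2b, 12273 bp away, than to any start of foxo.

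Thor encodes the fly 4E-BP, a repressor of translation that binds eIF4E and is a well-known target of foxo (FBgn0261560, chr2L:3478434-3479612, plus strand, 1.18 kb). Its 2 TSSs are 88 bp apart, and an optimal peak (chr2L:3478229-3478664) covered both. Its summit lay 13 bp downstream of the Thor-RA start and 75 bp before the Thor-RB start. The pooled rank was 761, with a signal of 266. Replicate 1 ranked the peak highest, at 337, and replicates 2 and 3 gave 1193 and 1250, all in the top part. A second optimal peak (chr2L:3475876-3476311) lay 2340 bp upstream and was among the last of the list, at pooled rank 3435. It ranked 4912, 2326 and 6148, so only replicate 2 had it in its top part.

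Rheb encodes the small GTPase that activates TOR (FBgn0041191, chr3R:5568921-5570491, plus strand, 1.57 kb, 1 TSS). Its 1 optimal peak (chr3R:5565554-5565989) was not at its own start. The summit lay 3149 bp upstream, inside the neighbouring gene CG12746 and 606 bp downstream of a CG12746 TSS. It had a pooled rank of 1757 and ranked 3224, 2822 and 1246, in the top part of all replicates. A peak at the Rheb promoter (chr3R:5568579-5569014) had its summit 124 bp before the TSS and ranked 4224 with a signal of 103, just below the optimal list. Replicates 2 and 3 ranked it 4224 and 3416, and replicate 1 had no overlapping peak. CG2931 starts on the other strand 306 bp upstream of Rheb, so the stretch between these starts belongs to both genes.

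S6k encodes the kinase that phosphorylates ribosomal protein S6 when TOR is active (FBgn0283472, chr3L:5797549-5810931, minus strand, 13.4 kb, 1 TSS). It had 2 optimal peaks, both near the lower end of the list. The one at the start (chr3L:5810537-5810972) had its summit 176 bp into the gene, in the 5′ untranslated region, at pooled rank 3264. It ranked 4928, 2529 and 4068. The gene kri starts on the other strand 42 bp upstream of S6k, at 5810973. The peak thus covers the S6k start and ends just short of the kri start. The intron peak (chr3L:5809070-5809505), 1643 bp downstream, had a pooled rank of 2672 and ranked 1997, 5411 and 5658. Each S6k peak was therefore in the top part of a single replicate, replicate 2 for the first and replicate 1 for the second.

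Myc encodes the growth-promoting transcription factor that pairs with Max (FBgn0262656, chrX:3373159-3391697, plus strand, 18.5 kb, 1 TSS). Its 1 optimal peak (chrX:3372906-3373341) had the summit 35 bp before the TSS, and the noncoding gene lncRNA:CR44999 starts on the same strand at that same TSS, 3373159. It was weak, with a signal of 118 and a pooled rank of 3330. The nearest replicate summits ranked 3135, 8815 and 4649. In replicate 2 a second, stronger peak overlapped it at rank 2973, with its summit 139 bp farther upstream. The next strongest peak of Myc, in an intron 5413 bp downstream of the TSS, just missed the optimal list at rank 4210 with a signal of 103, and ranked 3017, 9141 and 4776.

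Across the genes, the strongest peak in the window was ordered foxo, InR, Thor, Rheb, S6k, Myc, chico. For Rheb this is the peak inside CG12746 and for chico the peak at bsk. Their strongest pooled peaks at their own promoters ranked 4224 and 17506. On a log2 scale of replicate ranks, where lower is stronger, the foxo peak had a mean of 6.89 ± 0.36 (SD, n = 3). InR followed with 9.13 ± 0.92 and Thor with 9.63 ± 1.07 (SD, n = 3). The replicate ranks of foxo, 89 to 140, did not overlap those of InR, 270 to 872. From InR downward, the range of replicate ranks of each gene overlapped that of the next gene in the order. Genes farther apart could be separate: InR did not overlap Rheb, 1246 to 3224, and Thor, 337 to 1250, did not overlap S6k, 1997 to 5658. InR also ranked ahead of Thor within each of the 3 replicate lists. Rheb had 11.13 ± 0.74, S6k 11.94 ± 0.85, Myc 12.3 ± 0.75 and chico 13.42 ± 1.09 (SD, n = 3).

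**Figure D2:**
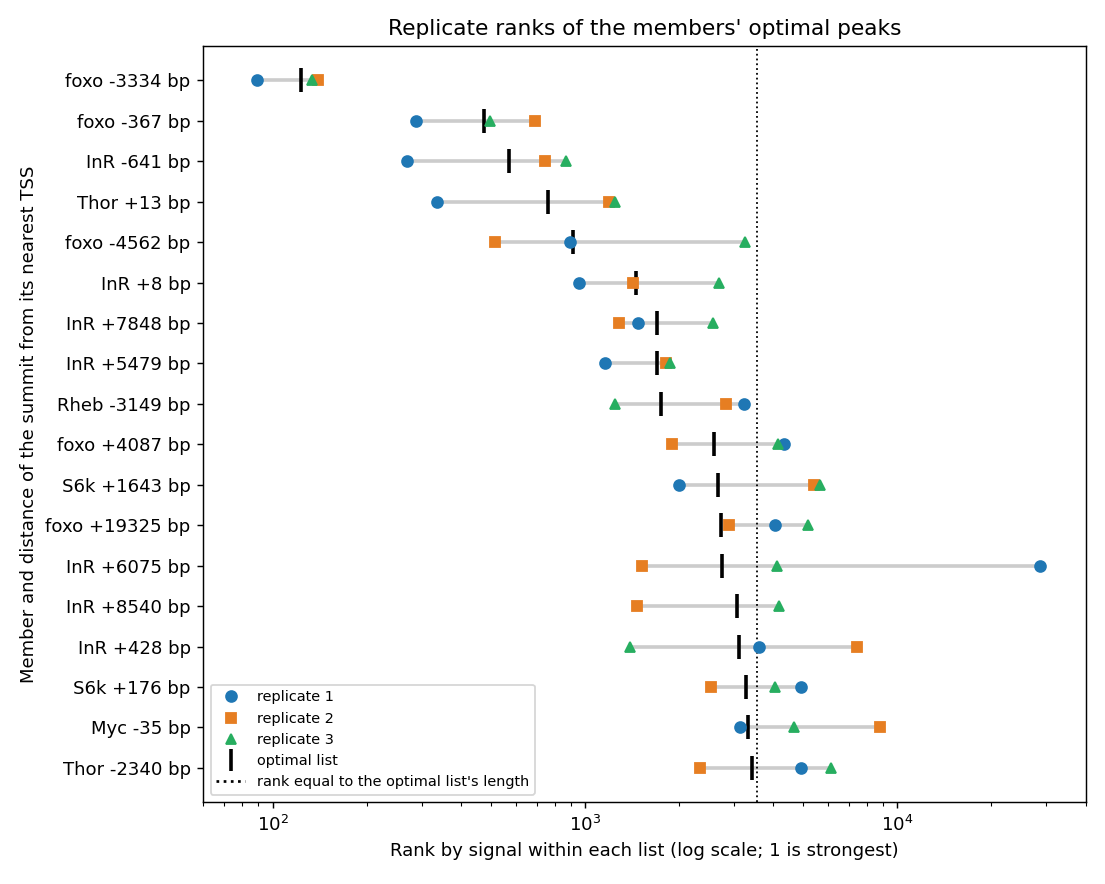
Ranks of the 18 optimal peaks in each replicate list, on a log axis where 1 is the strongest peak. Coloured symbols are replicates, black bars the optimal list, and the dotted line is rank 3545. The foxo peak 3334 bp upstream spans ranks 89 to 140, while the InR peak 6075 bp downstream of its nearest TSS spans 1518 to 28593.

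Support by replicates varied. Of the 18 optimal peaks, 17 overlapped a peak in all 3 replicate lists, and 9 lay in the top part of all 3. The other 9 had their nearest replicate summit in the top part of exactly 1 replicate. Counting any overlapping replicate peak, 50% of the 18 were in the top part of all replicates, against 57.2% of all optimal peaks. Replicate 2 held 88.9% of the 18 in its top part, against 83.4% of all optimal peaks, while replicate 1 held 61.1% against 75.7% and replicate 3 held 55.6% against 82.1%. By gene, a top-part summit was in the window of 6 of the 7 genes in replicate 1 (39.3% of all genes), 6 in replicate 2 (39.9%) and 4 in replicate 3 (38.5%). S6k and Myc were the genes missing from replicate 3, and chico was missing from all.

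Each window of 100 bp either side of a summit was read for 8 motifs on either strand, and a match describes letters only. GAGA factor was searched as GAGAG. The E-box that Myc and Max bind was searched as CACGTG, and the forkhead motif of proteins such as foxo as TTGTTTAC. The early embryonic activator Zelda was searched as CAGGTAG. Of the core promoter motifs, the TATA box was searched as TATAAA, the DRE (DNA replication-related element) as TATCGATA and the core of Ohler motif 1 as GGTCACAC. A CA repeat was searched as ACACACAC. GAGAG was in 8 of the 18 windows, or 44.4%, against 28.3% of all optimal windows and 25.4% of the other pooled windows. TATAAA was in 7, or 38.9%, against 34.9% and 23%. ACACACAC was in 2, or 11.1%, at InR and S6k, against 4.85% and 6.46%. Where matches of a motif overlap, each is counted below.

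The Thor promoter held the most GAGAG. All 6 matches were on the plus strand, their first bases between 85 and 50 bp before the Thor-RA TSS, several overlapping, and TATAAA began 31 bp before that TSS. The same window held a forkhead match, on the other strand 95 bp downstream of the TSS, the only 1 among the 18 (3.61% of all optimal windows). Myc had 3 GAGAG matches, starting 90, 65 and 56 bp before its TSS. Beside the InR-RA start, the intron peak held 3 matches, a pair of them overlapping. The foxo promoter held 1 GAGAG and 3 TATAAA on the opposite strand, in sequence of only 20.9% GC, the lowest of the 18. The E-box was found once, in the InR intron peak 5479 bp downstream of InR-RA (2.71% of all optimal windows), and not at Myc. DRE, the Ohler motif 1 core and the Zelda motif were in 0 of the 18, and were in 1.92%, 1.64% and 0.931% of all optimal windows.

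The pathway around the 7 genes was described with a list of 46 genes by role. Of these, 15 (32.6%) had an optimal summit within 500 bp of a TSS and 32 (69.6%) had one in the window. Without the 7 genes, 10 of 39 (25.6%) had an optimal promoter summit and 26 (66.7%) had one in the window. Over all protein-coding genes these shares were 14.1% near a TSS and 39.4% in the window. By role, optimal promoter peaks were at 0 of 10 genes for ligands and binding proteins and at 0 of 14 TSC and TOR genes, Rheb included. They were at 2 of 4 receptor and adaptor genes, 3 of 5 genes of the PI3-kinase arm, 2 of 3 transcription factor genes, 4 of 5 translation genes and 4 of 5 genes of the Myc network. In the wider window 10 of the 14 TSC and TOR genes had an optimal peak, and 3 of the 10 ligand genes did. Each role holds few genes, and no test was run between roles.

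REPTOR, a transcription factor that acts when TOR is inhibited, had the strongest promoter peak of the list. It ranked 52 in the pooled list with a signal of 844, and 42, 57 and 57 in the replicates. In the PI3-kinase arm, melt, whose protein binds membrane lipids, ranked 536 (839, 519 and 574). Pdk1, the kinase that activates Akt, ranked 766 (2015, 718 and 640). Pi3K21B, the regulatory subunit of PI3-kinase, ranked 2526, and the replicates differed widely, at 541, 1730 and 13578. Among adaptors, Lnk ranked 2923, and only replicate 3 had it in its top part (18380, 9650 and 1048).

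Lk6, a kinase of eIF4E, ranked 1394 (1481, 1997 and 1080), in the top part of every replicate. RpS6, the S6k substrate, ranked 1812, strong in replicates 1 and 2 and weak in replicate 3 (969, 2808 and 25266). In the Myc network, the pooled ranks of bigmax, Max and Mnt lay close together. Bigmax, which pairs with Mondo, ranked 1444 (1405, 2640 and 1242), and Max, which pairs with Myc, ranked 1552 (2246, 1184 and 2520), at a start it shares with CG42374. Mnt, a repressor that also pairs with Max, ranked 1733 (1409, 1324 and 5653). By pooled rank, all 3 had stronger promoter peaks than Myc itself, at 3330. In replicate 3, however, Mnt ranked behind Myc, 5653 against 4649. Of the genes with no optimal peak in the window, the first by alphabet in each role were Ilp1, an insulin-like peptide, chico, Nprl2, a subunit of a TOR inhibitor complex, and Mondo, a sugar-responsive transcription factor.

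**Figure D3:**
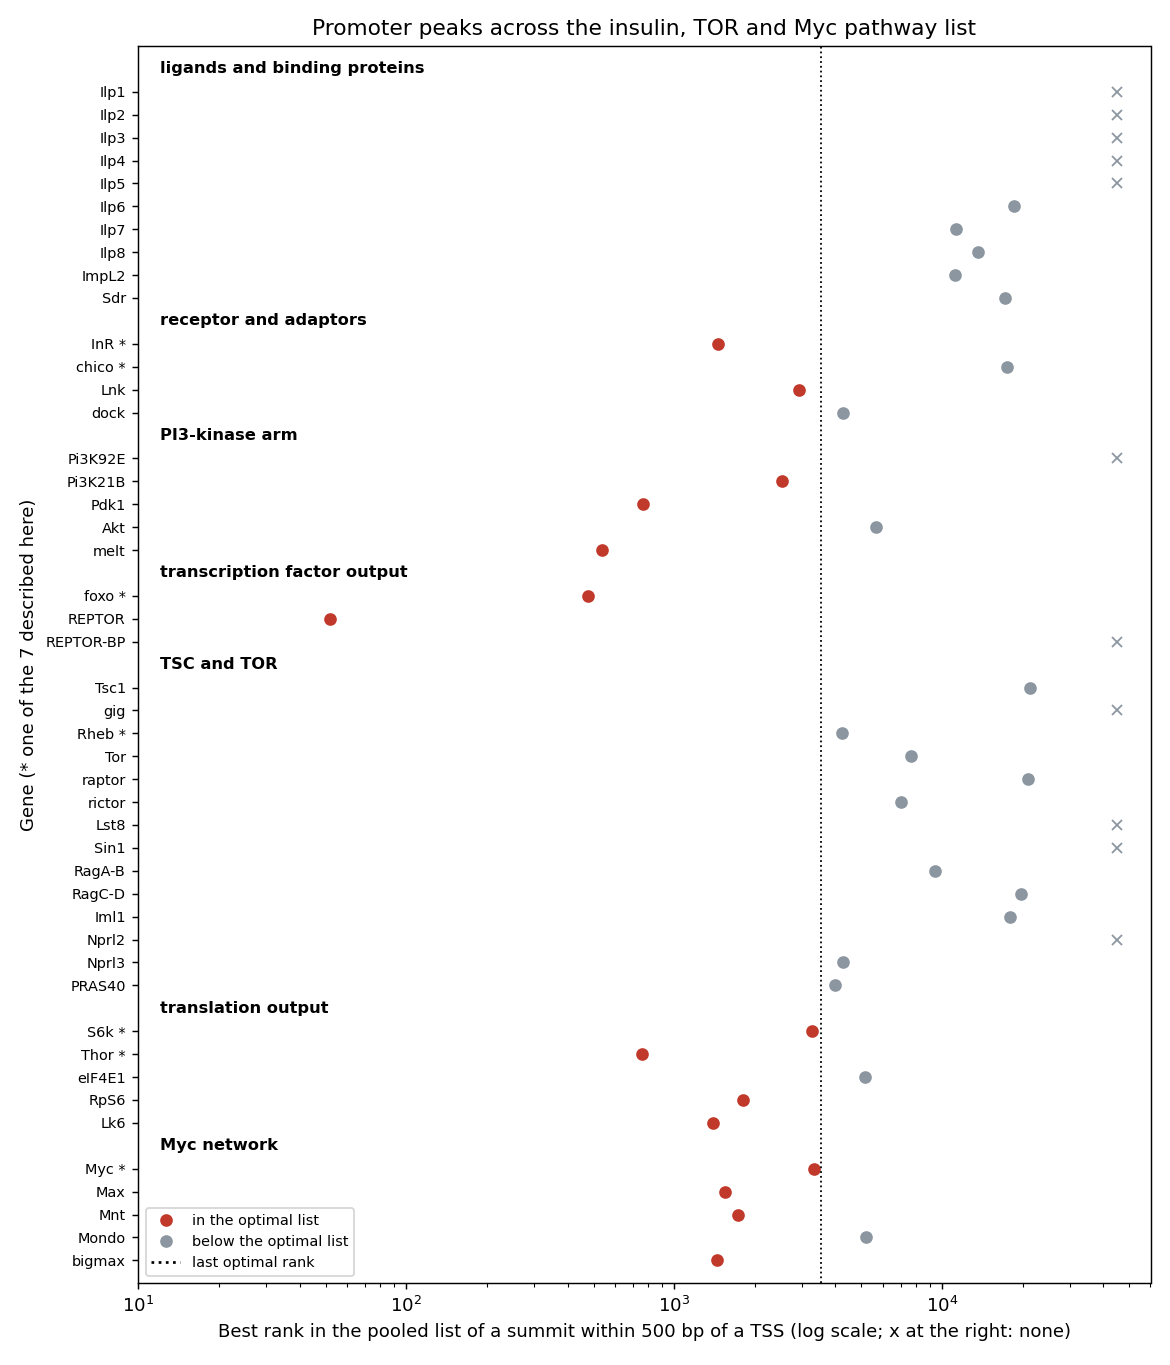
Best pooled rank of a summit within 500 bp of a TSS for the 46 genes of the pathway list, grouped by role, on a log axis where 1 is the strongest. Red points are in the optimal list (15 genes), grey points are below it, crosses are genes with no pooled promoter summit, the dotted line is the last optimal rank, 3545, and stars mark the 7 genes described here. REPTOR lies farthest to the left at 52, and no ligand or TSC and TOR gene lies left of the line.

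By replicate ranks, the optimal promoter peaks most like that of foxo were those of CG42671 and Argk1, among 1947 genes compared. The measure was the sum over the 3 replicates of the absolute log2 ratio of ranks. It was 0.37 for CG42671 (chr3L:11215216-11215420), which ranked 346, 661 and 512. It was 0.46 for Argk1 (chr3L:9057770-9057967), which ranked 282, 641 and 625. For genes compared in 1 set of 3 libraries, such likeness is a description of these ranks only.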

How the data were processed

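Per the labels, sonicated chromatin from whole embryos was precipitated and sequenced, in 3 replicates numbered by the labels. The deposited dm6 lists are in narrowPeak format. Each replicate list came from 1 replicate and 1 control, the pooled list from all replicates, and the optimal list from these by IDR, per the submitters' file list. Which aligner and caller were used, and at which IDR threshold, is not given in the sources used here. For peaks, the signal of the deposited lists is a score that the authors' caller gave each peak, and it set all ranks. The −log10 q-value column of the deposited lists served only as an alternative ranking. The fixed list length means that weak entries include background. The 5 dm3 lists were not used. The tagged locus was not examined.

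Genes and TSSs came from Ensembl release 115 on Release 6, the assembly of the files. For 1 optimal peak the summit lay past the peak's end, and the peak's last base was taken. A replicate peak belonged to an optimal peak when it overlapped by at least 1 bp and had the nearest summit. Of the pathway list fixed for this work, 1 gene is not reported here. The pathway gene named TOR is mTor in the annotation. Named genes were the 7 listed, pathway genes with an optimal summit within 500 bp of a TSS, the first by alphabet in each role with none in the window, neighbours nearest to a peak, and the 2 genes most like the strongest promoter peak. Other windows, promoter widths, list lengths, matching rules and left-out replicates were tried. The 7 genes, lists and motifs were chosen with earlier results of these data known. No tests were run, as the series has 1 group without a contrast. The matching was checked on simulated data. Python 3.11.15 with numpy 2.4.6, pandas 2.3.3 and matplotlib 3.10.9 was used.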

Additional observations from a re-analysis of the deposited data

How the results depend on the processing

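Over the 5 counts reported, 20 alternative values stayed within 1.5 times the reported count and 8 did not. The 6 genes with an optimal summit in the window became 3 (InR, foxo and Thor) when only the strongest 1000 optimal peaks were used, where 16.1% of all genes had one. With the gene body alone there were 4 (11.2% of all genes), with 2 kb either side 5 (27.2%) and with 10 kb 6 (53.5%). The 5 genes with an optimal summit near a TSS became 3 within 100 bp (InR, Thor and Myc), where the share of all genes was 5.01%, and the 15 pathway genes became 8. Keeping only optimal peaks that the top parts of both other replicates held, for each replicate in turn, left 9 to 10 of the 18 peaks, 4 to 5 genes in the window, 3 to 4 genes near a TSS and 10 to 13 pathway genes. Without replicates 1, 2 and 3 in turn, the shares of all genes were 30.8%, 28.9% and 29.5% in the window and 10.1%, 9.54% and 9.67% near a TSS. S6k was lost in each of these, and Myc was kept only without replicate 3. That setting filters a list made from all replicates, so it is no analysis without a replicate's data. The number of peaks in the top part of every replicate, 9, was 8 with summits within 100 bp and 9 by the −log10 q-value column or by the strongest overlapping replicate peak, a setting chosen after seeing the data. No paired analysis was possible because there is 1 group. The lists hold no read counts, so depth is unknown and the error of a single peak's signal could not be computed. Windows can hold peaks of neighbouring genes, and a peak near a gene does not show that the gene is regulated by the tagged protein.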
